A study of Mus musculus with 20 samples.

Results

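Odorant receptors with known ligands, or with a long history as tagged genes, were followed in active and less active sensory neurons of the mouse nose. They were taken by name from a list of 10 genes, and no threshold on a measured value entered the rule: MOR23 (Olfr16), M71 (Olfr151), M72 (Olfr160), I7 (Olfr2), mOR-EG (Olfr73), P2 (Olfr17), MOR256-17 (Olfr15), MOR215-1 (Olfr1440), SR1 (Olfr124) and the TMT receptor (Olfr1019). Of the 10 genes 9 had a probe set under their name, 1 each, among 1091 odorant receptor genes and 22206 gene probe sets on the array. M71 was not analysed here, since no probe set in the annotation used carries its name, and the gene table lists it as a transcribed pseudogene. All animals were S100a5-tauGFP mice of both sexes and 7 to 12 weeks, held alone for 40 h in chambers with clean air flowing at 3.1 L/min. After 26 h they were given pulses of 10 s every 20 min, of filtered air for the vehicle animals or of an artificial cigarette smoke odor for the others, whereas the design text of the series names bourgeonal. Olfactory mucosa from 3 mice was pooled and sorted by fluorescence. That gave 4 groups of 5 samples, namely vehicle GFP-, vehicle GFP+, odor GFP- and odor GFP+, and both fractions of a pool share their mice. The reporter sits at S100a5, a calcium-binding protein gene whose transcription follows neuronal activity, so the sort enriches for a reporter level and does not measure firing itself. The allele's zygosity is not given in the sources used here.

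An odorant receptor is a G protein-coupled receptor on the cilia of olfactory sensory neurons. Each mature neuron expresses a single receptor gene from a single allele, and neurons with the same receptor send their axons to the same glomeruli of the olfactory bulb. In a bulk sample the signal of a receptor therefore stands for the neurons that chose it, and fewer such neurons cannot be told apart from less receptor RNA per neuron. M71 and M72 are close relatives that respond to acetophenone. I7 responds to octanal and related aldehydes, mOR-EG to eugenol, MOR23 to lyral, MOR215-1 to muscone and the TMT receptor to trimethylthiazoline from fox odor. SR1 and MOR256-17 belong to the MOR256 family and respond to many odorants. P2 is a receptor whose tagged alleles were used to show how axons converge.

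Sequence upstream of the annotated start is shown for MOR23 and SR1. Of the 10 genes 7 had an entry in the RefSeq table of windows around gene starts (GRCm38.p6), and these 2 are shown because their annotated start was not within a few bases of a start codon. In the others with an entry the gene model began at or next to the start codon, as it did exactly for 72.7% of 944 receptor windows, so those windows are not promoters in the strict sense. Receptor genes often have noncoding exons further upstream, and an annotated start need not be the start of transcription. Capitals mark matches to TAATTA, a core that homeodomain proteins bind. The 250 bases before the start lie at chr1:172956518-172956767 for MOR23 and chr17:37804819-37805068 for SR1, both on the plus strand.
MOR23: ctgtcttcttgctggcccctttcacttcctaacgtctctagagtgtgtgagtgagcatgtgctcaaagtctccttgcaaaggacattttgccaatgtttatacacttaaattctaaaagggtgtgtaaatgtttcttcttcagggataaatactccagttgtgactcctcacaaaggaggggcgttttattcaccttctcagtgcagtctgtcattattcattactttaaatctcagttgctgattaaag
SR1: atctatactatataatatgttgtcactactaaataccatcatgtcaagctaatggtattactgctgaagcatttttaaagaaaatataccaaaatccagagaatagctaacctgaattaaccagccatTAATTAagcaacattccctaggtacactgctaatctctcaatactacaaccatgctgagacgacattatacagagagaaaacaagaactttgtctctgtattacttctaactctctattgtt
TAATTA reads the same on both strands. It occurred 1 time in the SR1 window and 0 times in that of MOR23. It was present in 18.1% of 944 odorant receptor windows and in 4.9% of the windows of 27025 genes. CCCNNGGG, the palindromic core bound by the EBF (Olf-1) factors, also reads the same on both strands and does not overlap the other motif. It was in neither window, in 2.75% of the receptor windows and in 11.7% of all. These are matches of letters and not sites of binding.

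The sort itself was checked with the reporter gene. S100a5 was higher in GFP+ cells in 5 of 5 vehicle pools, by 1.30 on the log2 scale (SE 0.36, adjusted p = 0.0368 by limma). That call ended without vehicle replicate 2 (0.99, adjusted p = 0.1053), 3 or 5, when odor pool 1 or 3 was left out (the spread is estimated over both conditions), with quantile normalization (adjusted p = 0.0708), with vehicle pools alone in the fit (adjusted p = 0.0986) and without both pools numbered 5 (adjusted p = 0.123). In odor pools it was higher by 2.15 (SE 0.36, adjusted p = 0.00131 by limma), again in 5 of 5. Omp, the marker of mature sensory neurons, differed by 0.22 (SE 0.23) and 0.12 (SE 0.23), and neither passed. Genes of neutrophils were lower in GFP+ cells for 8 of 8 listed members in both conditions. Their summed log2 signal ran from 19.1 to 20.5 in vehicle GFP- samples and from 8.73 to 9.95 in vehicle GFP+ samples. In odor samples it ran from 18.8 to 20.0 and from 9.07 to 9.70. Microvillar cell genes were called lower in 4 of 4, immature neuron genes in 4 of 5 and genes of basal progenitors in 3 of 4. Macrophage genes were in 3 of 4 in vehicle and 2 of 4 in odor pools, and sustentacular cell genes in 2 of 5 and 0 of 5. The 1 erythroid gene measured was lower in both. Of all probe sets 6.86% were called lower in vehicle and 5.82% in odor pools. Mature neuron genes passed in 0 of 6, with a median difference of 0.45 in vehicle and 0.29 in odor pools. The part of these other cells in the receptor values was not tested. The 4 arrays numbered 5, 1 in each group, had median gene signals of 7.03 to 7.46 against 6.06 to 6.39 on the others, and the pools numbered 5 are named wherever they bear on a receptor. Background control probes had medians of 5.14 to 6.34 per array, and signals at that level give no measure of a receptor.

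**Figure D1:**
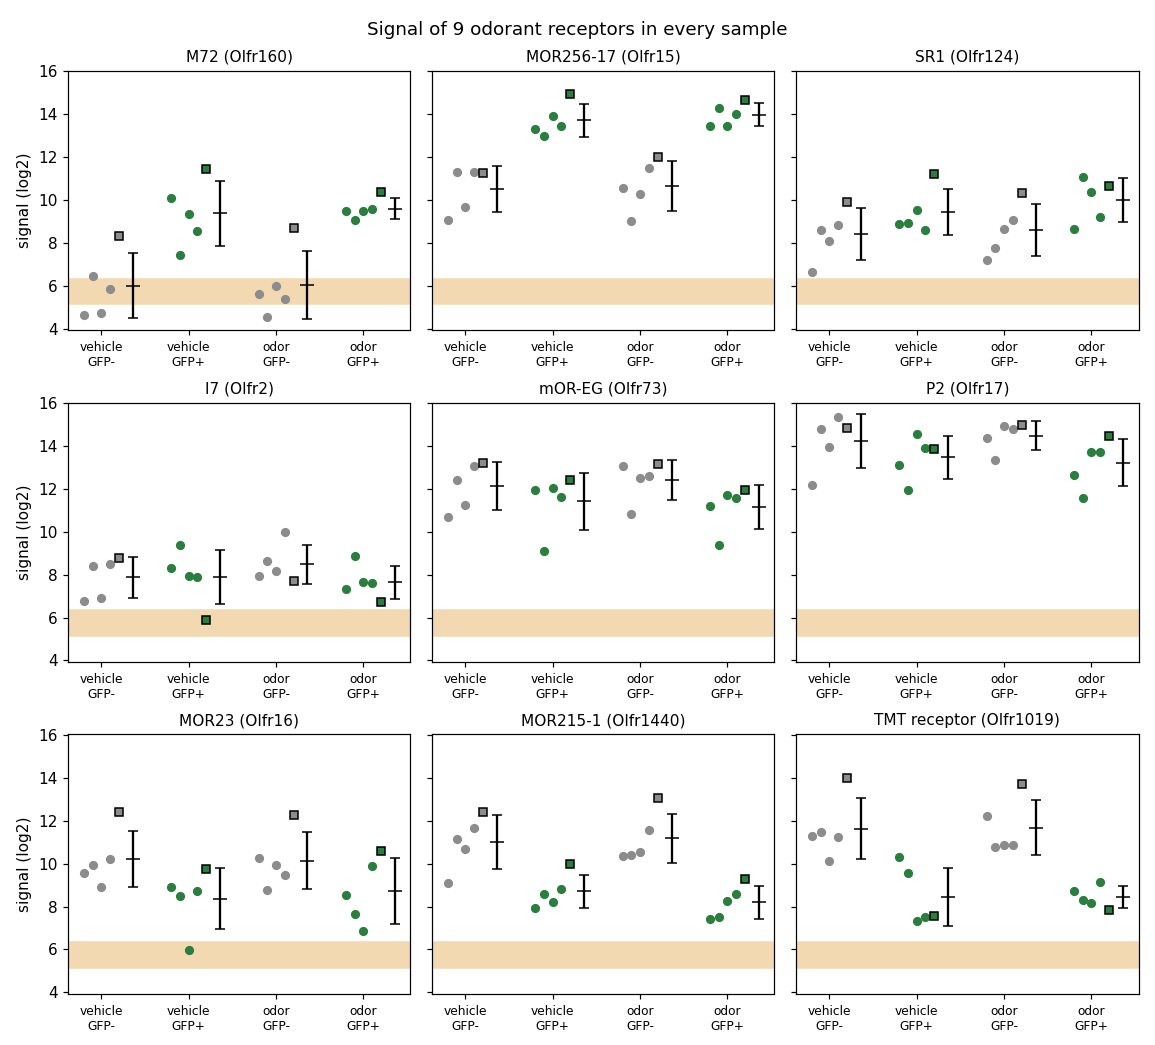
Signal (log2, y axis) of each receptor in every sample of the 4 groups (x axis), grey for GFP- and green for GFP+; replicates 1 to 5 run from left to right, squares are the arrays numbered 5, bars show mean and SD (n = 5) and the band spans the background control medians, 5.14 to 6.34. M72 and MOR256-17 sit higher in GFP+ samples, MOR215-1 and the TMT receptor in GFP- samples, and 7 of the 10 GFP- values of M72 fall within or below the band.

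The listed receptors did not share a direction in the sort. M72 and MOR256-17 were about 10.4 and 9.09 times higher in GFP+ cells of vehicle pools, while MOR23, MOR215-1 and the TMT receptor were lower there by factors of 3.60, 4.93 and 9.05. SR1, I7, mOR-EG and P2 did not pass. That made 5 of 9 receptors called in vehicle pools, 2 higher and 3 lower, and 4 of 9 in odor pools, 2 in each direction. Among all probe sets 9.11% were called in vehicle pools (2.26% higher and 6.86% lower) and 7.89% in odor pools (2.07% higher and 5.82% lower). Among the 1091 odorant receptors the shares were 49.1% (33.5% higher and 15.6% lower) and 47.3% (30.3% higher and 17% lower). At an unadjusted p under 0.05 there were 6 and 8 of the 9, against 64.5% and 64.4% of odorant receptors. In vehicle pools the share of listed receptors called was near that of receptors in general. In odor pools the count depended on the setting, with 7 of 9 called after quantile normalization or without vehicle replicate 1, and 8 of 9 with odor pools alone in the fit. The median difference of the 9 receptors was -0.70 in vehicle and -1.26 in odor pools, against 0.51 and 0.43 for all odorant receptors and 0.09 and 0.08 for all probe sets. Centring each array on its median moved the last pair of values to 0.33 and 0.29. It changed the split of vehicle calls over all probe sets from 501 higher and 1523 lower to 1169 and 1211, and that of odor calls from 460 and 1292 to 807 and 1055. Quantile normalization gave 723 and 1433 in vehicle pools. None of the 5 receptors called in vehicle pools changed sign or call with either scaling.

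M72, the acetophenone receptor, had log2 signals of 4.64, 6.47, 4.71, 5.84 and 8.32 in vehicle GFP- samples of replicates 1 to 5. In vehicle GFP+ samples it was at 10.09, 7.44, 9.36, 8.56 and 11.43. The GFP+ sample lay higher in each pool, and the fractions overlapped only because the GFP- array numbered 5 exceeded the GFP+ array of replicate 2. The difference was 3.38 (SE 0.54, 95% confidence interval 2.21 to 4.55, adjusted p = 0.000809 by limma). In odor pools M72 was at 5.6, 4.55, 6.01, 5.37 and 8.72 in GFP- samples and at 9.49, 9.07, 9.49, 9.60 and 10.37 in GFP+ samples. Here the fractions did not overlap, and the difference was 3.55 (SE 0.54, adjusted p = 0.000647 by limma). In GFP- cells 3 of 5 vehicle and 4 of 5 odor signals were at or below 6.34, the highest background control median, so the size of the differences is uncertain. In vehicle replicate 1 the GFP- signal lay below its own background median, and the pool difference was the largest, 5.45. Only 2 of 5 vehicle and 0 of 5 odor GFP+ signals were above the 95th percentile of the control rows named as negative. In GFP- cells 0 of 5 were in either condition. Without vehicle replicate 2, whose difference of 0.97 was the smallest, the vehicle value was 3.98. Within replicates 1 to 4 it was 3.45 in vehicle and 4.03 in odor pools. M71 lies next to M72, and whether the M72 probe set also reads M71 RNA was not tested.

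MOR256-17, a broadly tuned receptor, lay above the background control medians in all samples. In each condition 3 of 5 GFP- signals and 5 of 5 GFP+ signals were also above the 95th percentile of the control rows named as negative. In vehicle GFP-, vehicle GFP+, odor GFP- and odor GFP+ samples the counts for SR1 were 0, 1, 1 and 3 of 5. In that order they were 0, 0, 1 and 0 for I7 and 3, 0, 2 and 2 for MOR23. MOR215-1 had 3, 0, 4 and 0, and the TMT receptor 3, 1, 4 and 0. For mOR-EG the count was 4 and for P2 5 in every group. In vehicle GFP+ samples MOR23, MOR215-1 and the TMT receptor thus lay mostly or wholly below that percentile. The size of their vehicle differences is uncertain. The log2 signals of MOR256-17 were 9.08, 11.29, 9.69, 11.33 and 11.28 in vehicle GFP- samples. They were 13.31, 13.00, 13.91, 13.44 and 14.93 in vehicle GFP+ samples. In odor pools they were 10.55, 9.0, 10.28, 11.47 and 12.01 in GFP- and 13.47, 14.31, 13.48, 14.03 and 14.66 in GFP+ samples. The fractions of MOR256-17 did not overlap in either condition, and the GFP+ sample was higher in 10 of 10 pools. The difference was 3.18 in vehicle pools (SE 0.44, 95% confidence interval 2.23 to 4.14, adjusted p = 0.000253 by limma). In odor pools it was 3.33 (SE 0.44, adjusted p = 0.000198 by limma). Odor replicate 2 stood out with a pool difference of 5.31, where the other odor pools had 2.56 to 3.20.

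SR1, the family member first described in the septal organ, went the same way with smaller values. Its vehicle signals were 6.62, 8.61, 8.11, 8.86 and 9.88 in GFP- and 8.90, 8.94, 9.55, 8.58 and 11.23 in GFP+ samples. The GFP+ sample was higher in 4 of 5 vehicle and 5 of 5 odor pools, yet the fractions overlapped in both conditions. The differences of 1.03 (SE 0.43, adjusted p = 0.215 by limma) and 1.39 (SE 0.43, adjusted p = 0.0763 by limma) did not pass. The odor value passed without vehicle replicate 1 (adjusted p = 0.0379), with arrays centred on the median (adjusted p = 0.0353) and with odor pools alone in the fit (adjusted p = 0.0391). The vehicle value passed in none of the alternatives run.

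I7, mOR-EG and P2 showed no difference that passed in either condition. I7, the octanal receptor, lay between 5.88 and 9.37 in vehicle GFP+ samples and between 6.75 and 8.77 in vehicle GFP- samples. Its pool differences ran from -2.90 in vehicle replicate 5 to 1.54 in vehicle replicate 1, with a mean of -0.0037 (SE 0.54). Without vehicle replicate 5 that mean was 0.72, so the sign is not settled. In odor pools the mean was -0.85 (SE 0.54), with 4 of 5 pools below 0.

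mOR-EG, the eugenol receptor, lay between 9.12 and 13.2 in vehicle samples. In vehicle pools its differences of 1.24, -3.32, 0.81, -1.46 and -0.77 had both signs, with a mean of -0.70 (SE 0.49, adjusted p = 0.549 by limma). In odor pools all 5 were below 0, from -1.87 to -0.77, with a mean of -1.26 (SE 0.49, adjusted p = 0.195 by limma). P2 lay between 11.6 and 15.3 over all 20 arrays. Its vehicle differences of 0.96, -2.86, 0.59, -1.43 and -0.99 averaged -0.75 (SE 0.44, adjusted p = 0.437 by limma). Its odor differences, from -1.75 to -0.54 and below 0 in 5 of 5 pools, averaged -1.26 (SE 0.44, adjusted p = 0.126 by limma). In odor pools both passed without vehicle replicate 2 (adjusted p = 0.0357 for mOR-EG and 0.0301 for P2), and P2 also without vehicle replicate 1 (adjusted p = 0.0438). The vehicle pools enter the odor test through the shared spread, and with odor pools alone in the fit the adjusted p-values were 0.00133 and 0.00221. Both also passed with quantile normalization (adjusted p = 0.0403 and 0.0188) and without the 3 pools whose arrays stood apart from their groups, vehicle 1 and 2 and odor 2 (adjusted p = 0.0293 and 0.0342).

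MOR215-1, the muscone receptor, had the lower signal in the GFP+ sample of all 10 pools and the narrowest spread of the 9 receptors over vehicle pools. Its vehicle signals were 9.08, 11.15, 10.71, 11.65 and 12.43 in GFP- and 7.95, 8.60, 8.20, 8.81 and 9.97 in GFP+ samples. In odor pools they were 10.34, 10.41, 10.53, 11.59 and 13.05 in GFP- and 7.41, 7.50, 8.24, 8.60 and 9.26 in GFP+ samples. The fractions did not overlap in odor pools, and in vehicle pools they overlapped only through GFP- replicate 1. The differences were -2.30 (SE 0.27, adjusted p = 6.09e-05 by limma) and -2.98 (SE 0.27, adjusted p = 6.31e-06 by limma). In vehicle replicate 1 the difference was -1.13, where the other vehicle pools had -2.84 to -2.47.

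The TMT receptor likewise had the lower signal in the GFP+ sample of all 10 pools, by amounts that varied widely. It was at 11.30, 11.47, 10.12, 11.27 and 13.98 in vehicle GFP- and 10.29, 9.55, 7.33, 7.51 and 7.57 in vehicle GFP+ samples. In odor pools it was at 12.20, 10.76, 10.89, 10.86 and 13.72 in GFP- and 8.71, 8.33, 8.16, 9.14 and 7.84 in GFP+ samples. The pools numbered 5 had the widest gaps, -6.41 and -5.87, against -1.01 to -3.75 elsewhere. The differences were -3.18 (SE 0.67, adjusted p = 0.00665 by limma) and -3.25 (SE 0.67, adjusted p = 0.00647 by limma). Within replicates 1 to 4 they were -2.37 (adjusted p = 0.00482) and -2.59 (adjusted p = 0.00336), so the call did not rest on the pools numbered 5 while the size moved with them.

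MOR23, the lyral receptor, was lower in GFP+ cells by less. It was at 9.58, 9.94, 8.93, 10.21 and 12.43 in vehicle GFP- and 8.90, 8.47, 5.98, 8.73 and 9.77 in vehicle GFP+ samples. All 5 vehicle pools were below 0, although the fractions overlapped, and the difference was -1.85 (SE 0.42, adjusted p = 0.0119 by limma). In odor pools 4 of 5 were below 0, with 0.43 in odor replicate 4, and the difference of -1.43 (SE 0.42, adjusted p = 0.0618 by limma) did not pass. The vehicle call was lost without vehicle replicate 3 (-1.57, adjusted p = 0.0697), without vehicle replicate 5 (-1.65, adjusted p = 0.0677) and without both pools numbered 5 (adjusted p = 0.0996). The odor value passed without odor replicate 4 (-1.89, adjusted p = 0.0116) or without vehicle replicate 1 (adjusted p = 0.0314), with quantile normalization (adjusted p = 0.0415) and with odor pools alone in the fit (adjusted p = 0.0358). The GFP+ signal of 5.98 in vehicle replicate 3 was within the range of the background control medians.

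**Figure D2:**
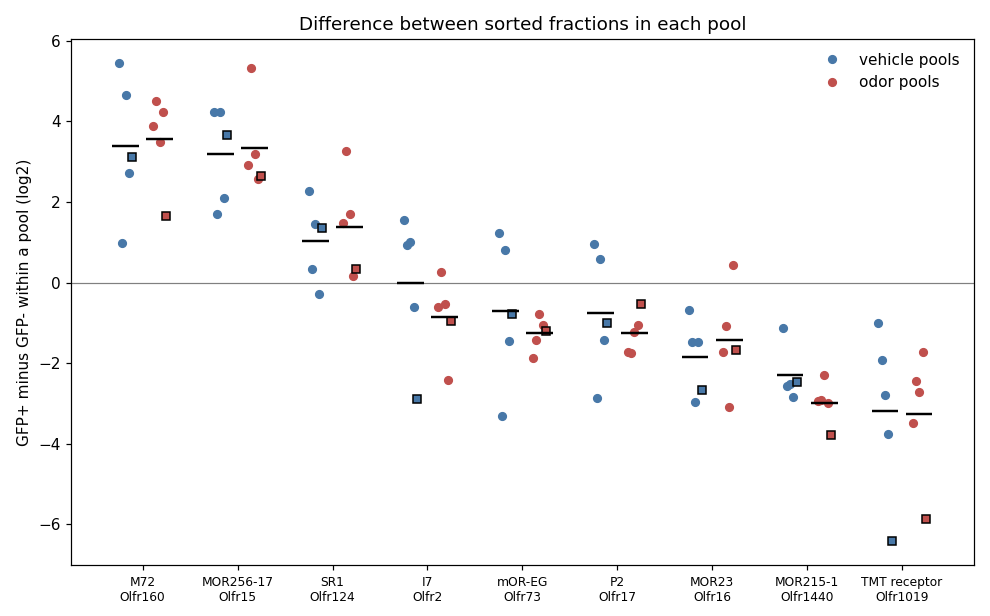
Difference of log2 signal, GFP+ minus GFP- within a pool (y axis), for each receptor (x axis) in 5 vehicle (blue) and 5 odor pools (red), with replicates 1 to 5 from left to right, squares for the pools numbered 5 and black lines for the means. All 10 pools lie above 0 for M72 and MOR256-17 and below 0 for MOR215-1 and the TMT receptor, and points of mOR-EG and P2 follow each other from pool to pool.

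Among the 1091 odorant receptors, ordered by their vehicle difference from the highest, M72 was in place 34 and MOR256-17 in place 47. SR1 followed in place 405 and I7 in place 719. mOR-EG and P2 were in places 858 and 863, MOR23 in place 954, MOR215-1 in 988 and the TMT receptor in 1033. Places in odor pools were 36 for M72, 46 for MOR256-17 and 284 for SR1. They were 850 for I7, 905 for mOR-EG, 904 for P2, 913 for MOR23, 1005 for MOR215-1 and 1020 for the TMT receptor. From the 10th to the 90th percentile, vehicle differences of odorant receptors ran from -2.22 to 2.54, so M72, MOR256-17, MOR215-1 and the TMT receptor lay outside this span. Places depend on probe sets whose lower signals are near background, as for M72, and are a description.

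**Figure D3:**
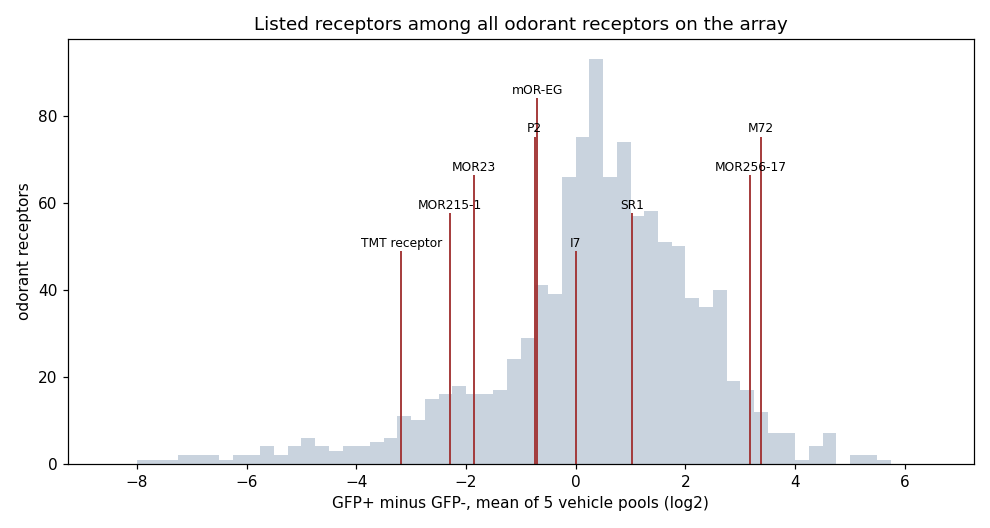
Number of odorant receptors (y axis) by their GFP+ minus GFP- difference, the mean of 5 vehicle pools in log2 units (x axis, bins of 0.25), with red lines at the listed receptors. The 9 lines run from -3.18 for the TMT receptor to 3.38 for M72 and fall in both tails as well as the middle.

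The second question was whether the smoke odor moved any of these receptors, either in how they divided between the fractions or in their level within a fraction. No such change passed the test. The odor effect on the GFP+ minus GFP- difference was called by limma for 0 of 9 receptors, against 0% of the 22206 probe sets. With no adjustment, p was under 0.05 for 0 of the 9, for 4.03% of odorant receptors and for 1.21% of all probe sets. The lowest unadjusted p was that of MOR215-1 (0.0967), with an effect of -0.68 (SE 0.38, 95% confidence interval -1.50 to 0.14, adjusted p = 1 by limma). I7 had the estimate farthest from 0, -0.85 (95% confidence interval -2.48 to 0.79). mOR-EG was at -0.56 (-2.07 to 0.95) and P2 at -0.51 (-1.85 to 0.83). MOR23 was at 0.42 (-0.88 to 1.72), SR1 at 0.36 (-0.96 to 1.68), M72 at 0.17 (-1.48 to 1.83) and MOR256-17 at 0.14 (-1.20 to 1.49). The TMT receptor was at -0.07 with an interval from -2.12 to 1.98. These intervals leave room for changes of 2-fold or more in at least 1 direction for each of the 9 receptors, and the test did not show that the receptors stayed the same.

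Within GFP+ cells 0 of 9 receptors and 0% of all probe sets were called, with 0.275% of probe sets and 1.37% of odorant receptors at an unadjusted p under 0.05. The differences, odor minus vehicle, ran from -0.50 for MOR215-1 (95% confidence interval -1.48 to 0.48) to 0.55 for SR1 (-0.70 to 1.80). MOR256-17 had the narrowest interval, 0.27 (-0.58 to 1.12). Within GFP- cells 0 of 9 and again 0% were called, with 0.135% of probe sets and 0.275% of odorant receptors at an unadjusted p under 0.05. There the differences ran from -0.08 for MOR23 to 0.61 for I7 (-0.57 to 1.78). None of the 9 receptors had an unadjusted p under 0.05 in either fraction. These comparisons use the same samples as the effect on the difference between fractions and are not independent of it. With the replicate number as a block they called 0 of 9 receptors as well.

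**Figure D4:**
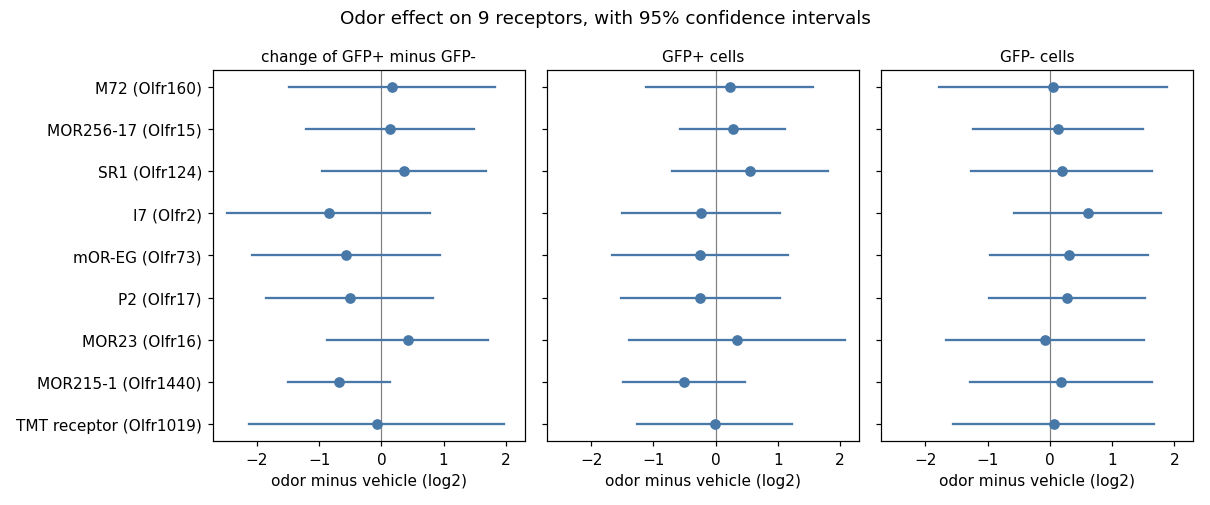
Odor minus vehicle (log2, x axis) for each receptor (y axis), as the change of the GFP+ minus GFP- difference (left) and within GFP+ (centre) and GFP- cells (right); points are limma estimates and lines 95% confidence intervals, from 5 odor and 5 vehicle pools. Every interval drawn includes 0.

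The pool differences of some receptors varied together by Pearson correlation, although no pair passed by the adjusted Spearman test. After the mean of each condition was removed, 45 pairs among the 9 receptors and S100a5 were compared over 10 pools, with permutations of pools within conditions (100000 draws, two-sided). P2 and mOR-EG had a Pearson r of 0.964 (permutation p = 0.00167, 0.0376 after Benjamini-Hochberg adjustment over the pairs). Their Spearman rho was 0.939 (permutation p = 0.0052, adjusted 0.117). Without the 2 pools farthest from the median of P2 the Pearson r was 0.88, and without the pools numbered 5 it was 0.99. MOR256-17 and SR1 had a Pearson r of 0.91 (permutation p = 0.00104, adjusted 0.0376) and a Spearman rho of 0.927 (permutation p = 0.00115, adjusted 0.0517). Without the 2 farthest pools that r was 0.79. M72 with MOR256-17 (r 0.74) and with mOR-EG (r 0.79) came next, each with an adjusted Pearson permutation p of 0.255, and the remaining pairs were at 0.355 or more, and the pairs of S100a5 with a receptor had a Pearson r between -0.42 and 0.25. Values of a pair come from the same arrays, so a shared feature of an array enters both. The extreme pools were vehicle 1 and 2 for P2 and mOR-EG and odor 2 for MOR256-17 and SR1. Apart from arrays numbered 5, each of these pools holds an array among those that correlated least with their groups. Omp was not among the pairs, and its differences in vehicle replicates 1 to 5 were 1.19, -0.32, 0.40, -0.43 and 0.27. Whether the pairs reflect such features was not tested. P2 lies on chromosome 7 and mOR-EG on chromosome 2, MOR256-17 on chromosome 16 and SR1 on chromosome 17.

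**Figure D5:**
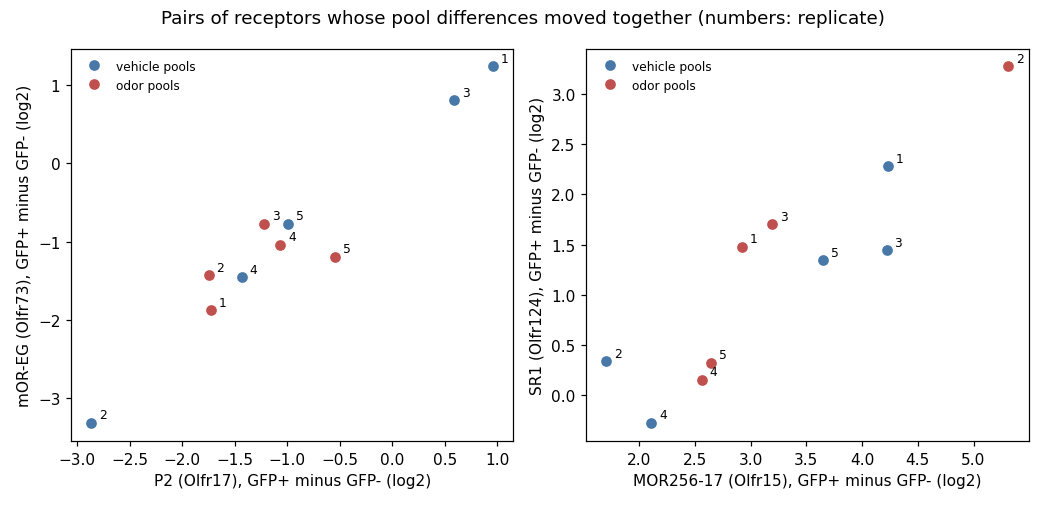
GFP+ minus GFP- (log2) of mOR-EG against P2 (left) and of SR1 against MOR256-17 (right) in each of 5 vehicle (blue) and 5 odor pools (red), with the replicate number beside the point. Vehicle replicates 1 and 2 are at opposite ends for P2 and mOR-EG, and odor replicate 2 has the highest value of both MOR256-17 and SR1.

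Genes beside a listed receptor on its chromosome were then read out, up to 2 odorant receptor genes on each side in the RefSeq order, with values from vehicle pools. MOR256-17 rose in GFP+ cells while both measured genes that follow it in that order, Olfr19 and Olfr164, were at -4.82 (SE 0.51, adjusted p = 2.47e-05 by limma) and -1.0 (SE 0.32, adjusted p = 0.0789 by limma) in vehicle pools. MOR23 fell, and its measured neighbours Olfr1410 (2.05), Olfr12 (1.16) and Olfr1408 (0.60) were all positive, of which Olfr1410 and Olfr12 passed. Neighbours here are the next receptor genes in order and can be far away. Olfr19 and Olfr164 start 12834 and 15447 kb from MOR256-17. From MOR23, Olfr1410 and Olfr12 start 80349 and 80337 kb away and Olfr1408 173 kb away. On one side of SR1, Olfr125 rose by 2.80 (SE 0.33) and Olfr126, the next, fell by 1.80 (SE 0.42). On the other side Olfr123 was at -0.07 and Olfr122 at 0.41.

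Beside mOR-EG, Olfr1160 rose by 1.81 (SE 0.48) while Olfr1162 and Olfr1163 fell by 2.50 and 2.01. I7 and P2 lie in the same stretch of chromosome 7 and share Olfr713 and Olfr714, which fell by 1.39 and 1.10. Olfr711, on the other side of I7, fell by 1.21, while Olfr715b and Olfr715, beyond P2, were at 0.35 and -0.54 and did not pass. The TMT receptor lies between Olfr1018, which fell by 1.53, and Olfr1020 (-0.34, not past the threshold). Olfr1441, next to MOR215-1, was at -0.26 with mean signals below the background control medians, and Olfr1442 fell by 3.20. M72 had Olfr874 at 0.90 (SE 0.41, adjusted p = 0.264 by limma) beyond M71. On the other side Olfr18, which starts 17397.5 kb away, fell by 3.82, and Olfr873, 17411.1 kb away, rose by 1.83. In GFP+ cells the mean signals of Olfr18, Olfr19, Olfr1163 and Olfr1442 were below the background control medians, so the size of their differences is uncertain. In vehicle pools neighbours went in both directions past the threshold around SR1 and mOR-EG, and for M72 only through the distant Olfr18 and Olfr873. In odor pools both directions passed around SR1 and mOR-EG, while Olfr873 was at 1.26 (adjusted p = 0.119 by limma). Olfr711, Olfr713, Olfr714 and Olfr12 did not pass in odor pools either.

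Profiles were also compared over the 20 arrays, after subtraction of each array's median. The one most like that of M72 was Olfr1448 (Pearson r 0.97), followed by Olfr693 (0.97). For MOR256-17 these were Olfr281 and Olfr527 (0.98 each), for SR1 Olfr45 (0.89) and Cabp4 (0.87) and for I7 Olfr832 and Fbrs (0.79 each). mOR-EG was most like P2 (0.88) and Olfr552 (0.86), and P2 most like Olfr239 (0.91) and mOR-EG. MOR23 was most like Olfr1431 (0.89) and Olfr807 (0.87), MOR215-1 like Plk2 and Pygl (0.96 each) and the TMT receptor like Sptb and Olfr629 (0.94 each). The groups differ in the sort, which all these profiles share, and the correlations are a description over arrays.

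The partners that odorant receptors signal through were also read out in the sort. In the cilium, receptors act through the G protein subunit encoded by Gnal on adenylyl cyclase Adcy3, whose product cAMP opens a channel of Cnga2, Cnga4 and Cngb1, and calcium then opens the chloride channel Ano2. Rtp1 and Rtp2 carry receptors to the surface. Of 20 measured genes in the list 0 rose and 2 fell in vehicle pools, and the same counts held in odor pools, next to the 9.11% and 7.89% of all probe sets called. The pair was Gnas, the widely expressed relative of Gnal, at -3.55 (SE 0.42, adjusted p = 7.21e-05 by limma) and -3.18, and Grk3, a kinase that desensitizes receptors, at -1.03 (SE 0.22, adjusted p = 0.00685 by limma) and -0.79. Rtp1 was at 0.64, Rtp2 at 0.87, Adcy3 at 0.54, Cnga2 at 0.51, Ano2 at 0.83 and Gnal at 0.09 in vehicle pools, and none passed. The median of the list was 0.45 against 0.09 for all probe sets. With quantile normalization, or with arrays centred on the median, 4 genes of the list passed in vehicle pools, as they did without vehicle replicate 2. In odor pools the count was 1 with centring, and also without vehicle replicate 3 or 5 or any 1 of the odor replicates. It was 3 with quantile normalization or without vehicle replicate 1 or 2, and 4 with odor pools alone in the fit. No gene of the list was called for an odor effect in either fraction or on the difference between fractions.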

How the data were processed

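RNA of 20 sorted samples was hybridised to 1 Clariom S array each. The authors deposited a log2 signal for each probe set, computed with Affymetrix Expression Console per the submitters' processing notes. Its version and the normalization are not given in the sources used for this work. They were used as deposited. Of 28846 rows 6640 were controls, and 22206 gene probe sets were tested with no filter, 19572 of them named by the platform annotation. Symbols were set against the RefSeq table of GRCm38.p6. With no detection calls, signals were set beside the background control medians. Control rows named as negative reached 95th percentiles of 8.99 to 11.78, above many receptor signals. The number of arrays limits the precision.

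limma 3.58.1 in R 4.3.3 was fitted to all probe sets, with Benjamini-Hochberg adjustment at 0.05. GFP+ minus GFP- differences within 10 pools gave the sort in each condition and the odor effect on it, and odor against vehicle was fitted to the 10 arrays of a fraction without a block. Permutations used Python 3.11.15. The code was tested on simulated data. Deviations from group means of odor and vehicle samples with the same number correlated in GFP+ cells at 0.16 to 0.86, above the limit of 0.1 for pairing, and in GFP- cells at -0.38 to 0.84. That fractions of a number share mice comes from the labels.

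The receptors named were all those listed, with their neighbours, most similar profiles and a signalling list. These members and lists were chosen with earlier results of these data known. Protein identity, a planned way to find close relatives, was not used here, nor was the planned comparison of M71 with M72. Alternatives were other scalings, a filter on the dimmest 25%, an intensity trend, a term for the pools numbered 5, blocks, a fit without the pairing within pools and left-out pools. Leaving out the 3 pools with an array that, apart from those numbered 5, correlated least with its group (vehicle 1 and 2, odor 2) was added after the data were seen.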

Additional observations from a re-analysis of the deposited data

Results flagged for a closer look

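In 54 sets of 5 values (9 receptors in 4 groups of signals and 2 sets of pool differences) 4 held a value far from the others by Dixon's criterion, which flags about 1 in 20 by chance. The MOR256-17 (Olfr15) difference of 5.31 in odor replicate 2 stood above the other odor pools (2.56 to 3.20). The mOR-EG (Olfr73) signal of 9.12 in vehicle GFP+ replicate 2 lay below the other 4 (11.6 to 12.4), and its signal of 10.84 in odor GFP- replicate 2 lay below 12.5 to 13.2. The MOR215-1 (Olfr1440) difference of -1.13 in vehicle replicate 1 was nearer 0 than the others (-2.84 to -2.47). The arrays of vehicle GFP- 1, vehicle GFP+ 2 and odor GFP- 2 had mean correlations with their groups of 0.895, 0.946 and 0.951, and the part of this in the values was not tested.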

How the results depend on the processing

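The calls of M72, MOR256-17, MOR215-1 and the TMT receptor held in both conditions under all alternatives run. Of 9 receptors 5 were called in vehicle pools, and 4 to 5 over the left-out pools. In odor pools 4 were called, 7 with quantile normalization, 8 with the odor pools alone in the fit and 4 to 7 over the left-out pools, the highest without vehicle replicate 1. Without the 3 pools in doubt the counts were 5 and 6. For the 3 odor comparisons the count was 0 under all alternatives, the replicate block among them. One alternative dropped the pairing of fractions that share mice and fitted the arrays as unrelated groups. There 4 receptors were called in each condition and MOR23 was lost in vehicle pools (-1.85, adjusted p = 0.366). Calls over all probe sets went from 2024 to 1198 (vehicle) and from 1752 to 1050 (odor). With odor pools alone they were 2722. The cause of these changes was not tested.

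Signs that turned belonged to differences that did not pass. In the vehicle sort I7 (Olfr2) was at 0.35 with quantile normalization, 0.24 with centring and 0.72 without the pools numbered 5, and over the left-out pools from -0.39 to 0.72. Omp ranged from -0.021 to 0.38. Without the 3 pools in doubt the odor effect on the difference was -0.18 for M72, -0.50 for MOR256-17 and 0.86 for the TMT receptor. In GFP+ cells M72 was then at -0.046, MOR256-17 at -0.18, SR1 at -0.064, I7 at 0.080 and the TMT receptor at 0.99. In GFP- cells SR1 was at -0.14 and MOR215-1 at -0.22. Also in GFP- cells, the TMT receptor was at -0.037 with quantile normalization, and without the pools numbered 5 M72 was at -0.032 and MOR256-17 at -0.022.

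With each pool left out in turn, the odor effect on the difference ranged from -0.43 to 0.69 for M72, -0.35 to 0.41 for MOR256-17, -0.11 to 0.67 for SR1, -0.043 to 0.84 for MOR23 and -0.88 to 0.58 for the TMT receptor. In GFP+ cells the range was -0.26 to 0.74 for M72, -0.74 to 0.13 for I7, -0.84 to 0.18 for mOR-EG, -0.63 to 0.17 for P2, -0.26 to 0.80 for MOR23 and -0.29 to 0.45 for the TMT receptor. In GFP- cells it was -0.61 to 0.63 for M72, -0.24 to 0.54 for MOR256-17, -0.26 to 0.55 for SR1, -0.053 to 0.71 for mOR-EG, -0.25 to 0.56 for P2, -0.62 to 0.47 for MOR23, -0.30 to 0.53 for MOR215-1 and -0.45 to 0.65 for the TMT receptor. The planned comparison of M71 with M72 was not run. Signals near background limit M72 in GFP- cells, the I7 value in vehicle GFP+ replicate 5 and the MOR23 value in vehicle GFP+ replicate 3.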
